A study of Mus musculus with 54 samples.

Results

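The loci of 10 genes of the mouse pluripotency network were examined: Pou5f1, Nanog, Klf4, Klf2, Esrrb, Zfp42, Prdm14, Tfcp2l1, Tbx3 and Fgf4. They were taken as a list of names out of 55450 genes in the GENCODE annotation of mm10. A binding site belonged to a locus when its summit lay within 50 kb of the gene body, and the 10 windows together cover 1295 kb. Peaks of all libraries of an antibody were merged where they overlapped. The windows held 118 of 68126 CTCF sites, 93 of 46774 sites of the cohesin subunit Smc3 and 43 of 14282 sites of the cohesin subunit Rad21. Each site is named by its gene and its distance in kb from the start of that gene along the direction of transcription, so that a negative distance lies upstream.

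Pou5f1, which encodes Oct4, and Nanog encode homeodomain transcription factors at the centre of the network that keeps embryonic stem cells (ESCs) self-renewing. Klf4, Klf2, Esrrb, Zfp42, Prdm14, Tfcp2l1 and Tbx3 encode transcription regulators of the naive state, and Fgf4 encodes the secreted ligand that primes ESCs to leave it. Most of these genes are known to be switched off when ESCs become neural progenitor cells (NPCs). CTCF is a zinc finger protein that binds a long DNA motif and halts the cohesin ring as it extrudes DNA, and chromatin loops form between CTCF sites whose motifs point towards each other.

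All cells derived from the E14 ESC line. In the rescue cells, each line being 1 clone, both endogenous CTCF alleles carried an mAID-eGFP degron tag, Rosa26 carried a heterozygous OsTir1 transgene, Mnx1 carried an Hb9 mCherry reporter, and both Tigre alleles carried a doxycycline-inducible Flag-Halo-CTCF. This rescue protein was either wild type (WT) or lacked part of zinc finger 1, a finger that contacts RNA (ΔZF1). Every rescue culture, WT controls included, received 1 µM 5-Ph-IAA to degrade the tagged CTCF and 1 µg/ml doxycycline to induce the rescue protein for 24 hours. ESCs grew with LIF and the inhibitors CHIR99021 and PD0325901, and NPCs were the same cells after 2 days in N2B27 medium on laminin. The PodxlpA and Grb10pA lines carried a homozygous polyadenylation cassette in Podxl or Grb10 and were compared as NPCs with parental E14 NPCs, all with endogenous CTCF and no rescue treatment. CTCF was mapped in 4 libraries of each of the 4 rescue groups and in 2 libraries each of E14, PodxlpA and Grb10pA. For Smc3 these 7 groups had 2 libraries each, and for Rad21 the 4 rescue groups had 2 each. The peak lists hold no expression, so neither the cell state nor the deletion in the transgene could be checked from them.

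The measure used throughout is the percentile of a peak's fold enrichment among all peaks of its own library, where 100 is the most enriched peak. CTCF libraries held 5755 to 45941 peaks, of which 11 to 87 lay in the windows. The Smc3 libraries held 8169 to 34104 peaks with 17 to 59 in the windows, and the Rad21 libraries 1306 to 10415 with 10 to 40. Replicates 1 and 4 of the CTCF rescue groups stood apart from replicates 2 and 3, with a lowest local background of 1.14 to 2.39 against 0.392 to 0.905 fragments and median peak widths of 352 to 447 against 190 to 301 bp. In replicate 4, 36.7% to 46.8% of all peaks lay within 1 kb of an annotated gene start, against 18.6% to 30.3% in replicates 2 and 3, 20.8% to 28.1% in replicate 1 of 3 groups and 54.9% in ΔZF1 NPC replicate 1. The peak names inside the replicate 4 lists carry the number 2 in all 4 groups, although each shares 0 intervals with the replicate 2 list of its group, and whether they are cultures of their own could not be settled. CTCF comparisons are therefore also given for replicates 1 to 3, a choice made after seeing the data. A missing call at a weak site therefore has to be read against the length of the list. So does a percentile, which ranks a site only among the peaks called in its own list.

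The CTCF sites that carry the results below are shown with the motif match in capitals and 20 bases of sequence on either side, read 5′ to 3′ on the strand of the match from the RefSeq assembly GRCm38.p6, the build of the peak lists. The motif was learned from CTCF sites called in all 22 libraries outside these windows, has the consensus CCACCAGGGGGCGCTGGAG and was sought on both strands in 151 bases around a summit. The Nanog −37.9 kb site (chr6:122669606-122669664, plus strand) and the Prdm14 −7.3 kb site (chr1:13134446-13134504, minus strand) were called in every CTCF library. The Nanog match is centred 66 bases from the summit, at the edge of the 151 bases searched, and sequence beyond was not searched. The Klf4 +2.0 kb site (chr4:55530423-55530481, minus strand) lies in a coding exon of Klf4, the Esrrb +41.8 kb site (chr12:86402900-86402958, minus strand) in an intron of Esrrb and the Klf2 +47.0 kb site (chr8:72365973-72366031, minus strand) in an intron of Eps15l1. The Fgf4 −1.0 kb site (chr7:144846338-144846396, plus strand) is the CTCF site of the Fgf4 promoter.
Nanog −37.9: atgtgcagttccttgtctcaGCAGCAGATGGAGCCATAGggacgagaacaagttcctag
Prdm14 −7.3: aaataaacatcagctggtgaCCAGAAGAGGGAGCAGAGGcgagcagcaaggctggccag
Klf4 +2.0: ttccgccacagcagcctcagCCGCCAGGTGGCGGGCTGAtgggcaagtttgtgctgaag
Esrrb +41.8: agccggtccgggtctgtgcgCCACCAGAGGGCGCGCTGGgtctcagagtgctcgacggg
Klf2 +47.0: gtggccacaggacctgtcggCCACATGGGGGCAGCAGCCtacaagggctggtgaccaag
Fgf4 −1.0: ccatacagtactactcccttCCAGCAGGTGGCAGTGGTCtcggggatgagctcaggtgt

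The motif was present at 35 of the 39 windows' CTCF sites that were called in at least 11 of 22 libraries (89.7%), against 88.5% of all such sites in the genome and 3.68% of windows 1 kb away from CTCF sites. The 4 sites without a match were Klf4 +51.8 kb, Tbx3 +10.2 kb, Fgf4 +58.4 kb and Pou5f1 +37.0 kb. Of the 35 matches, 23 ran towards the start of the gene and 12 ran away from it. Over all 118 sites 69.5% held a match, against 71.1% of all CTCF sites.

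The same letters recurred at several of the loci, Nanog and Esrrb among them, and Pou5f1 sites are printed as examples. The sites at −9.3 kb (chr17:35496689-35496747, plus strand), at +2.5 kb in an intron of Pou5f1 (chr17:35508427-35508485, plus strand) and at +8.1 kb in an intron of Tcf19 (chr17:35514049-35514107, minus strand) each held the 12 letters CCAGAAGAGGGC, which form the first part of the motif match.
Pou5f1 −9.3: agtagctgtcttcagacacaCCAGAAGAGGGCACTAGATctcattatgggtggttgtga
Pou5f1 +2.5: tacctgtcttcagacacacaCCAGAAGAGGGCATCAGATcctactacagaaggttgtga
Pou5f1 +8.1: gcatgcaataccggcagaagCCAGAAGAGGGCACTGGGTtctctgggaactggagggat
These letters, on either strand, were present at 29 of the 118 CTCF sites (24.6%), against 18.3% of all CTCF sites and 0.655% of windows 1 kb away. Among sites called in at least 11 libraries they were present at 7 of 39 (17.9%), against 10.8% in the genome. Besides the Pou5f1 sites printed here, these were Esrrb −16.7, +147.7 and +198.0 kb and Tbx3 +32.5 kb. The letters were taken from the Pou5f1 −9.3 kb site, so the windows include the sites that gave them. The shares therefore cannot show an excess at these loci. B2 SINE repeats are known to carry a CTCF motif of this form, and repeat annotation was not used here.

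Among the 10 loci, CTCF sites were densest around Pou5f1, Nanog and Tbx3 and sparsest around Tfcp2l1, and no density over the genome was computed. Per 100 kb of window there were 17.2 sites at Pou5f1, 16.8 at Nanog, 16.7 at Tbx3 and 11 at Fgf4, 8.04 at Zfp42, 7.92 at Prdm14, 6.65 at Klf4, 6.14 at Esrrb and 5.85 at Klf2, and 1.91 at Tfcp2l1. Most sites were not called in every library: 3 of the 118 were called in all 22 (2.54%, against 2.76% of all CTCF sites), 39 in at least 11 (33.1%, against 28.0%) and 26 in 1 library (22%, against 22.7%). The 39 recurrent sites were spread unevenly, with 10 at Pou5f1, 7 at Tbx3, 5 each at Esrrb and Fgf4, 4 at Nanog, 3 at Klf4, 2 each at Klf2 and Prdm14, 1 at Zfp42 and 0 at Tfcp2l1. Of the 118 sites 65 were intergenic, 34 intronic, 8 in coding exons, 7 in UTRs and 4 in exons of noncoding genes.

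**Figure D1:**
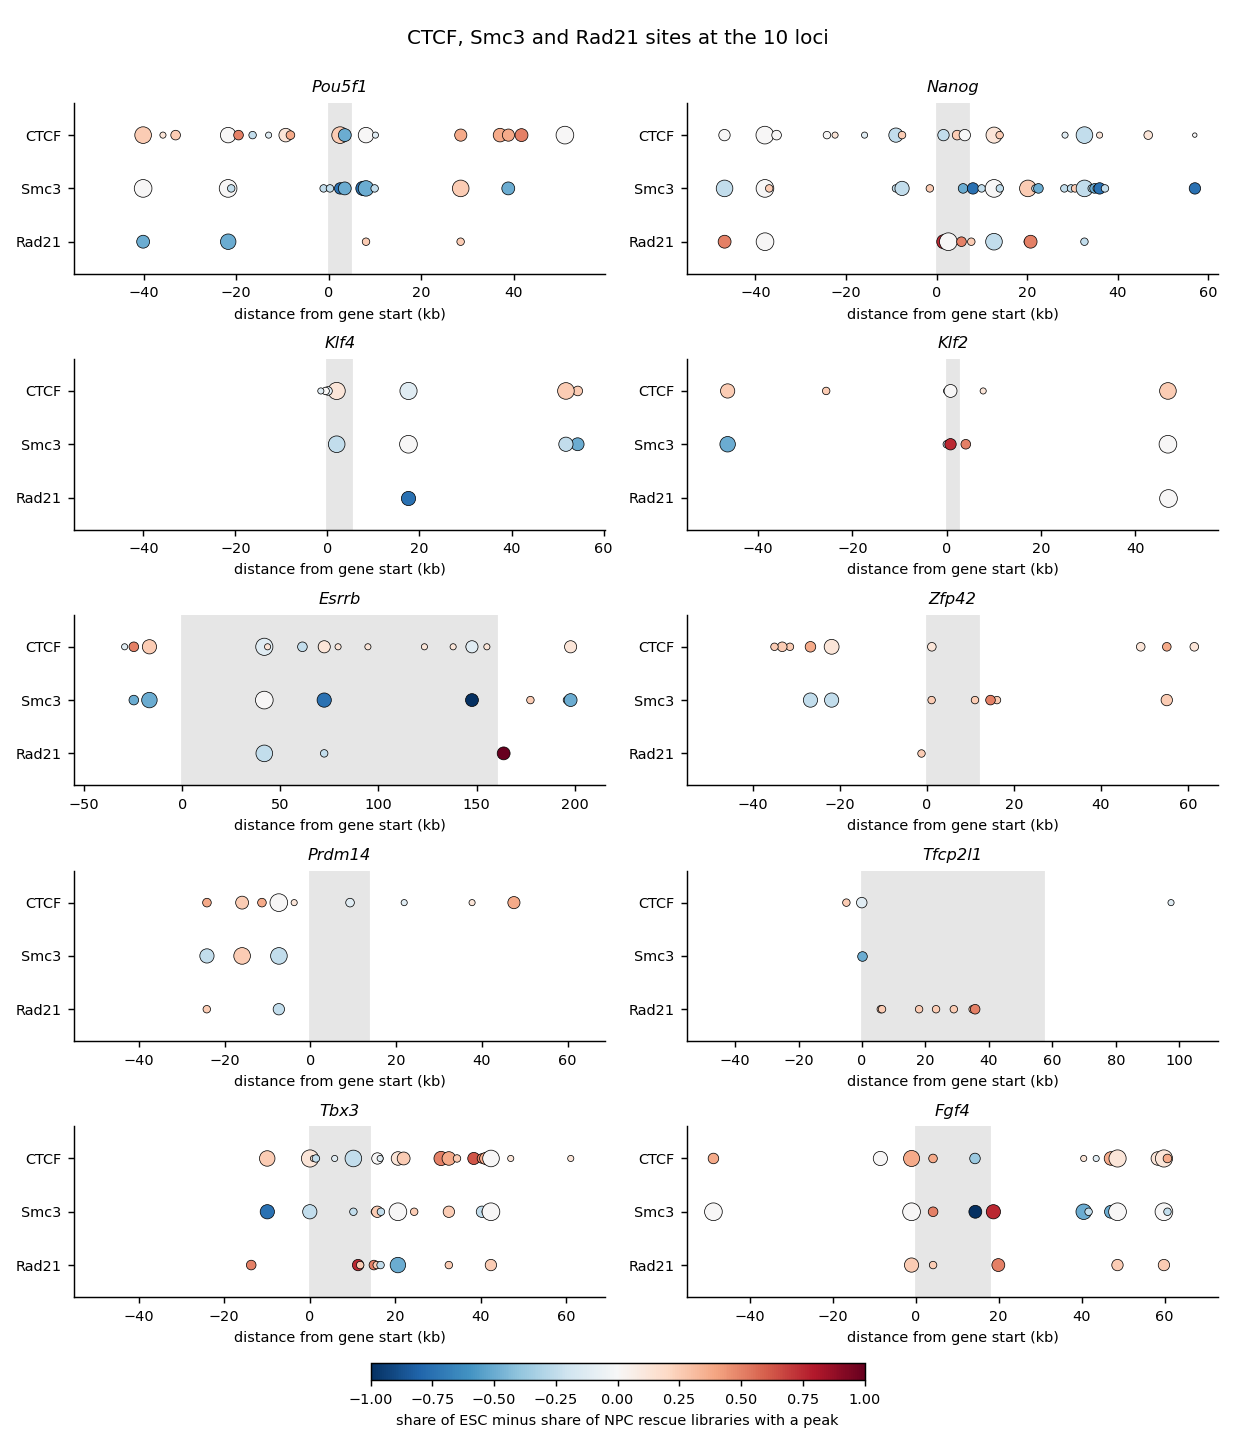
Map of all CTCF, Smc3 and Rad21 sites in the 10 windows. The x axis is the distance from the gene start in kb, the grey bar is the gene body, marker area grows with the number of libraries with a peak, and colour gives the share of ESC minus the share of NPC rescue libraries with a peak (red for ESCs, blue for NPCs). Pou5f1, Nanog and Tbx3 hold 18, 18 and 19 CTCF sites and Tfcp2l1 holds 3.

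At Pou5f1 (chr17:35506018-35510772, plus strand, mm10, as for all coordinates here) the site called in all 22 libraries lay at +51.1 kb, in a UTR of the neighbouring gene Cdsn, and had no peak in any of the 14 Smc3 or 8 Rad21 libraries. Its CTCF percentile was 97.7 to 99.7 in WT ESCs, ΔZF1 ESCs and WT NPCs, and 91.5, 96.3, 91.6 and 97.8 in the 4 ΔZF1 NPC libraries. The site nearest to the Pou5f1 start, at +2.5 kb, was called in 20 libraries. Its percentiles were 94.3, 76.2, 89.0 and 72.2 in WT ESCs, 96.3, 65.0, 93.4 and 60.3 in ΔZF1 ESCs, and 94.1, 34.1, 95.5 and 84.3 in WT NPCs. In ΔZF1 NPCs it was called in 2 of 4 libraries, at 51.0 and 82.0, so the ranges of all 4 groups overlapped. A second site inside the gene, at +3.5 kb in a coding exon, had a peak in 1 WT and 1 ΔZF1 library of ESCs, in all 4 WT and 2 of 4 ΔZF1 libraries of NPCs, and in 5 of 6 libraries of E14, PodxlpA and Grb10pA NPCs. The 6 upstream and downstream sites at −40.1, −21.8, −9.3, +8.1, +28.6 and +38.9 kb were each called in 13 to 20 libraries, and the +37.0 kb site in 12.

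At Nanog (chr6:122707489-122714633, plus strand) the upstream −37.9 kb site was among the strongest CTCF sites of nearly every library. Its percentiles were 99.2, 99.1, 98.7 and 96.3 in WT ESCs, 98.6, 99.1, 93.6 and 96.4 in ΔZF1 ESCs, 95.9, 98.7, 97.9 and 93.0 in WT NPCs, and 87.7, 98.2, 96.7 and 94.9 in ΔZF1 NPCs. In the 6 E14, PodxlpA and Grb10pA libraries it lay between 98.4 and 99.3, and the groups overlapped. The downstream sites at +12.7 kb and, in an intron of the glucose transporter gene Slc2a3, at +32.6 kb were called in 19 and 20 libraries. The −9.0 kb site, in an exon of the noncoding gene Gm10224, was called in 4 of 4 WT NPC libraries, at percentiles of 76.1, 48.9, 35.4 and 38.8, and in 2 of 4 libraries of each other rescue group. Nearest to the Nanog start, an intronic site at +1.5 kb was called in 6 of 22 libraries, all of rescue cells.

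Klf4 (chr4:55527143-55532466, minus strand), whose product is a zinc finger activator of the naive state, had a recurrent CTCF site inside the gene and 2 downstream of it. The +2.0 kb site was called in 21 of 22 libraries, at percentiles of 83.6, 34.5, 27.8 and 71.6 in WT ESCs and 90.4, 88.1, 86.9 and 89.4 in WT NPCs. Every WT NPC value was above every WT ESC value. In ΔZF1 cells the values were 96.3, 68.0, 23.7 and 90.2 in ESCs and 80.4, 60.5 and 95.0 in the 3 NPC libraries with a peak, and these overlapped. The 2 downstream sites at +17.6 and +51.8 kb were called in 20 libraries each. At the Klf4 start itself a site at +0.1 kb was called in 3 libraries.

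Klf2 (chr8:72319033-72321656, plus strand), a close relative of Klf4, had its strongest CTCF site 47.0 kb downstream, in Eps15l1. That site was called in every WT ESC, ΔZF1 ESC and WT NPC library and in 2 of 4 ΔZF1 NPC libraries, where it ranked at 32.8 and 32.6, against 43.8 to 84.3 in WT cells. The ΔZF1 NPC libraries without a call at it held 13639 and 5755 CTCF peaks and those with a call 10242 and 33452, and the part of list length in the missing calls was not tested. The −46.5 kb site was called in 16 libraries. Near the gene start a peak was called in 1 library, and a weak site in the coding exon at +0.8 kb was called in 8 libraries at percentiles of 0.6 to 30.6, all of them rescue libraries of replicate 1, 2 or 4.

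Esrrb (chr12:86361117-86521628, plus strand), an orphan nuclear receptor gene and the longest of the 10, held 12 of its 16 CTCF sites inside the gene body. The intronic +41.8 kb site was called in 21 libraries, at 92.7, 90.5, 66.0 and 43.8 in WT ESCs and 94.0, 87.4 and 83.6 in 3 ΔZF1 ESC libraries. In NPCs it lay at 70.4, 64.1, 50.1 and 53.1 with WT CTCF and at 59.2, 50.0, 12 and 86.1 with ΔZF1. These values overlapped between ESCs and NPCs. The other recurrent Esrrb sites, at −16.7, +72.4, +147.7 and +198.0 kb, were called in 15, 12, 12 and 11 libraries.

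Prdm14 (chr1:13113457-13127163, minus strand), which encodes a PR domain repressor of differentiation genes, had 1 site in all libraries, 7.3 kb upstream. Its percentiles were 96.6, 91.3, 94.7 and 80.2 in WT ESCs, 97.3, 72.0, 96.3 and 90.5 in ΔZF1 ESCs, 97.6, 90.1, 96.6 and 80.7 in WT NPCs and 92.0, 66.3, 25.3 and 94.2 in ΔZF1 NPCs. Replicate 3 of the ΔZF1 NPCs stood far below the rest, and the other values overlapped. Its list was the shortest CTCF list, with 5755 peaks, and the part of list length in its percentiles was not tested. Its second recurrent site, at −15.9 kb in an intron of Ncoa2, was called in 13 libraries and in 0 of 4 ΔZF1 NPC libraries.

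Zfp42 (chr8:43295063-43306980, minus strand), the gene of the ESC marker Rex1, and Tfcp2l1 (chr1:118627945-118685168, plus strand), a naive factor acting downstream of LIF, had the fewest recurrent CTCF sites, 1 and 0. Zfp42 had 1 recurrent site, at −21.9 kb, called in 17 libraries at percentiles of 15.0 to 64.6. The site nearest to its start, at +1.1 kb, was called in 3 libraries, at 8.7, 8.7 and 0.6. A site at +55.1 kb was called in 3 of 4 WT ESC libraries, at 59.0, 40.3 and 19.3, in none of the other 12 rescue libraries, and in 4 of 6 E14, PodxlpA and Grb10pA libraries. Tfcp2l1 had 3 sites, of which the promoter site 0.1 kb upstream was called in 6 of 22 libraries.

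Tbx3 (chr5:119670669-119684724, plus strand), a T-box factor gene, had CTCF over its start and along the whole window. The site at +0.1 kb, in the UTR, was called in 20 libraries and the +42.4 kb site in 20. An upstream intronic site at −9.9 kb was called in 12 of 16 rescue libraries and the coding exon site at +10.2 kb in 14 of 16, and both were called in 0 of 6 E14, PodxlpA and Grb10pA libraries. The sites at +20.7, +32.5 and +30.7 kb were called in 15, 14 and 12 libraries. At Fgf4 (chr7:144847367-144865243, plus strand) the promoter site at −1.0 kb was called in 19 libraries, with percentiles of 83.2, 68.2, 10.8 and 73.2 in WT ESCs, 74.5, 76.5, 42.1 and 62.1 in ΔZF1 ESCs, 59.3, 61.1 and 27.2 in WT NPCs and 68.9 and 58.2 in ΔZF1 NPCs. The Fgf4 sites at +48.6 and +59.8 kb were called in 21 libraries each, and those at +47.1 and +58.4 kb in 14 each.

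Whether the ΔZF1 protein or the change of cell state moved CTCF at these loci was tested in 3 ways. First, the share of a library's CTCF peaks that fell in the windows was 0.214 ± 0.0144% in WT ESCs, 0.215 ± 0.0382% in ΔZF1 ESCs, 0.188 ± 0.00876% in WT NPCs and 0.212 ± 0.0675% in ΔZF1 NPCs (mean ± SD, n = 4 each). The log2 difference ΔZF1 minus WT was −0.01 in ESCs and 0.13 in NPCs, with p = 0.914 in each by a two-sided exact permutation test, whose smallest possible value here is 0.0286. NPCs minus ESCs gave −0.19 with WT CTCF (exact permutation p = 0.0571, adjusted over the 4 comparisons 0.229; 0.0646 with windows of 20 kb and −0.25 with 100 kb, exact permutation p = 0.0286) and −0.05 with ΔZF1 (exact permutation p = 0.829, adjusted 0.914). None of the 4 passed the threshold of 0.05, and the sign of 3 of them turned within a pair of replicates. Within replicates 1 and 4, ΔZF1 minus WT was −0.17 in ESCs and −0.14 in NPCs, and within replicates 2 and 3 it was 0.15 and 0.39. With replicates 1 to 3 the 4 differences were 0.0853, 0.21, −0.18 and −0.05 (exact permutation p = 0.7, 0.8, 0.2 and 1, where the smallest possible is 0.1).

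**Figure D2:**
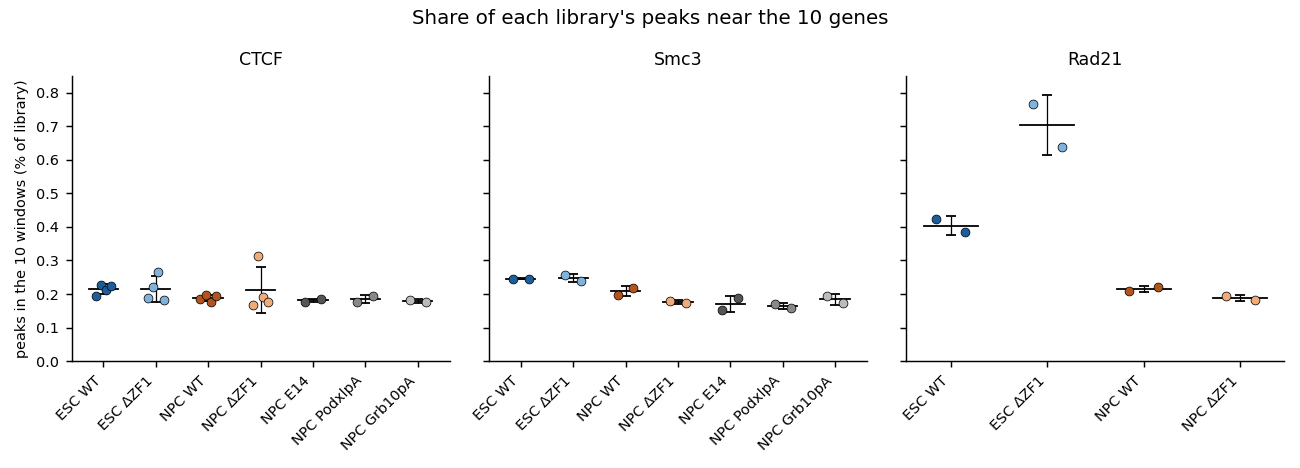
Share of each library's peaks that lies in the 10 windows, in percent, for CTCF, Smc3 and Rad21. Points are libraries, lines the mean and bars the SD by group. The CTCF groups overlap near 0.2%, and Rad21 ESC libraries lie between 0.384% and 0.766% against 0.181% to 0.221% in NPCs.

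Second, no CTCF site of the windows switched between groups, that is, had peaks in all libraries of 1 group while lacking one in each library of its counterpart. The numbers of sites that could have been were 102 for ΔZF1 against WT ESCs, 84 for ΔZF1 against WT NPCs, 95 for WT NPCs against ESCs and 106 for ΔZF1 NPCs against ESCs. Over the genome 0.0467% of sites were WT only and 0.00179% ΔZF1 only in ESCs, 0.451% WT only and 0.0% ΔZF1 only in NPCs, 0.0622% ESC only and 0.0739% NPC only with WT CTCF, and 0.232% ESC only and 0.0% NPC only with ΔZF1. A count of 0 among about 100 sites is thus near the background. With replicates 1 to 3 the counts were 2 of 101 and 1 of 73 WT only, and 4 of 94 and 3 of 93 ESC only, against 350 of 55146, 3098 of 40904, 677 of 50507 and 1645 of 48490 sites of the genome. Counted over any library, 69 of the 118 sites were seen in both ESC and NPC rescue cells, 33 in ESCs only and 15 in NPCs only (28.2% and 12.8% of those seen in rescue cells, against 23.5% and 13.8% of all CTCF sites), but no ESC only or NPC only site was present in all 8 libraries of its cell type. The longest pair of CTCF lists, with 43003 and 45941 peaks, were both of ESCs.

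Last, the ranks of sites called in all libraries compared were tested with limma on normal scores, so that an effect is in SD units of the score and is not a fold change. No site of the windows passed an adjusted p of 0.05 for CTCF: 0 of 12 in ESCs and 0 of 7 in NPCs for ΔZF1 minus WT, 0 of 14 for NPCs minus ESCs with WT CTCF and 0 of 3 with ΔZF1. The background was 0.0% of 5188, 2366, 5983 and 2284 sites. With replicates 1 to 3, 0 of 21, 7, 20 and 4 sites passed (0, 4, 1 and 1 without adjustment). Over the genome 0, 2, 0 and 0 of 7959, 2503, 10316 and 2339 sites then passed (182, 719, 801 and 330 without adjustment). With all replicates and no adjustment, 0, 0, 1 and 0 sites of the windows had a limma p under 0.05, against 118, 288, 563 and 204 over the genome. After quantile normalization of the log2 fold enrichment 0 sites of the windows were called in each comparison, while over the genome 2 were higher and 12 lower, 0 and 2, 116 and 33, and 0 and 0. The 1 site was Klf4 +2.0 kb, where WT NPCs minus ESCs was 1.07 ± 0.35 (SE) with a limma adjusted p of 0.274. At Nanog −37.9 kb the effects ranged from −0.32 to −0.18 over the 4 comparisons, with SEs of 0.28 to 0.32, and at Prdm14 −7.3 kb ΔZF1 minus WT was −0.01 ± 0.37 in ESCs and −0.80 ± 0.48 in NPCs (limma adjusted p = 1.00 and 0.451). For ΔZF1 minus WT in NPCs the median CTCF effect was −0.39 over all 2366 sites and −0.55 over the 7 sites of the windows. For ΔZF1 NPCs minus ESCs these medians were −0.39 over 2284 sites and −0.61 over 3. The effect of ΔZF1 was also compared between NPCs and ESCs, and 0 of 3 sites of the windows and 0.0% of 2122 sites passed. With bulk libraries, fewer cells with a bound site and less binding per cell cannot be told apart in any of these values.

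**Figure D3:**
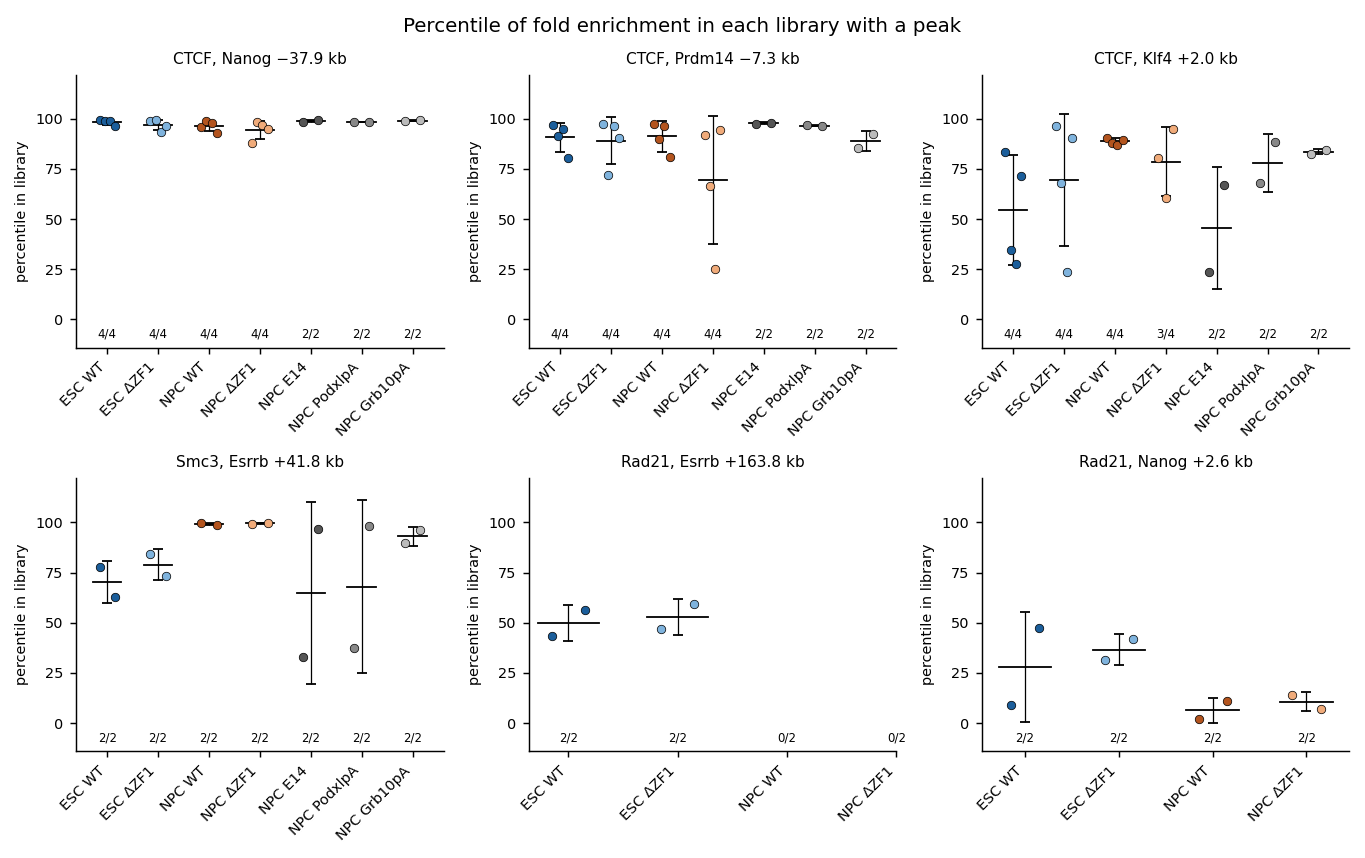
Within-library percentile of fold enrichment at 6 sites: CTCF at Nanog −37.9, Prdm14 −7.3 and Klf4 +2.0 kb, Smc3 at Esrrb +41.8 kb, and Rad21 at Esrrb +163.8 and Nanog +2.6 kb. Points are libraries with a peak, lines the mean, bars the SD, and the figures over the axis give libraries with a peak out of all in the group. Smc3 at Esrrb +41.8 kb lies at 98.8 to 99.6 in the NPC rescue libraries and at 62.8 to 84.4 in the ESC libraries.

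Cohesin was called at most recurrent CTCF sites. Of the 39 sites, 34 overlapped an Smc3 or Rad21 peak in at least 1 library (87.2%, against 92.1% of all CTCF sites called as often), 6 had Smc3 in all 14 libraries, and the Nanog −37.9 and Klf2 +47.0 kb sites had Smc3 in all 14 and Rad21 in all 8. The 5 without cohesin were Pou5f1 −9.3, +37.0 and +51.1 kb, Fgf4 +58.4 kb and Tbx3 +30.7 kb. Of the 79 less recurrent CTCF sites 28 overlapped cohesin (35.4%, against 42.0%). At Nanog −37.9 kb the Smc3 percentiles were 99.1 and 96.6 in WT ESCs, 99.2 and 94.9 in ΔZF1 ESCs, 98.2 and 93.1 in WT NPCs and 98.6 and 95.2 in ΔZF1 NPCs. The groups overlapped there, as they did for CTCF.

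Smc3 at Esrrb +41.8 kb (chr12:86402656-86403179) was more enriched in NPCs than in ESCs. It ranked at 77.8 and 62.8 in WT ESCs and 84.4 and 73.5 in ΔZF1 ESCs, and at 99.5 and 98.8 in WT NPCs and 99.4 and 99.6 in ΔZF1 NPCs. NPCs minus ESCs was 1.87 ± 0.53 SD units with WT CTCF (limma adjusted p = 0.0308) and 1.77 ± 0.29 with ΔZF1 (limma adjusted p = 0.00723), and it kept both calls after quantile normalization of the log2 fold enrichment (adjusted p = 0.00201 and 0.00621). ΔZF1 minus WT was 0.27 ± 0.50 in ESCs and 0.18 ± 0.40 in NPCs (limma adjusted p = 1.00 and 0.838). CTCF at the same site had means of 73.3 ± 23.1 in WT ESCs and 59.4 ± 9.49 in WT NPCs (SD, n = 4 each), and did not pass (−0.51 ± 0.36, limma adjusted p = 0.746). Rad21 there gave 1.19 ± 0.56 for WT NPCs minus ESCs and did not pass either (limma adjusted p = 0.247). The WT call was lost without WT ESC replicate 2 (limma adjusted p = 0.352) or without WT NPC replicate 1 or 2 (0.437 and 0.156), and with a −log10 q of at least 5, where the smallest adjusted p in the windows was 0.0624, and the ΔZF1 call without ΔZF1 NPC replicate 1 or 2 (0.0922 and 0.136). The same site ranked at 32.9 and 96.7 in E14, 37.5 and 98.4 in PodxlpA and 89.7 and 96.2 in Grb10pA NPCs, so that 2 of these 6 NPC libraries lay below every ESC library.

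With ΔZF1, 4 more Smc3 sites of the windows ranked higher in NPCs than in ESCs by the same test. They were Klf4 +2.0 kb (39.6 and 24.2 in ESCs, 73.4 and 80.4 in NPCs, 1.22 ± 0.30, adjusted p = 0.0203), Nanog +32.6 kb (10.1 and 28.5, then 64.1 and 54.1, 1.15 ± 0.33, adjusted p = 0.0328), Pou5f1 +28.5 kb in a UTR of Psors1c2 (43.9 and 37.1, then 79.9 and 74.1, 0.98 ± 0.28, adjusted p = 0.0333) and Pou5f1 −40.1 kb (62.3 and 41.6, then 79.5 and 89.4, 0.98 ± 0.32, adjusted p = 0.0485), all by limma. In total 5 of 20 sites were called higher and 0 lower, where 25.3% of 9986 sites were called higher and 1.0% lower, so the share is at the background. The median effect over all sites was 0.55 and that of the 20 sites 0.57. Quantile normalization moved the split of calls over all sites from 2526 higher and 100 lower to 764 and 748, and that among the 20 to 1 higher and 2 lower. These 4 sites then no longer passed (adjusted p = 0.175, 0.527, 0.429 and 0.326), and the calls were also lost without either ΔZF1 NPC library. With WT CTCF 1 of 14 sites was called higher, against 2.43% of 6512 sites, and 0 were called lower, against 0.107%. Quantile normalization moved that split from 158 higher and 7 lower to 434 and 405 over all sites, and to 1 higher and 1 lower in the windows.

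For ΔZF1 minus WT, limma called 0 of 17 Smc3 sites of the windows in ESCs and 0 of 26 in NPCs, against 0.0307% of 6506 and 0.428% of 12137 sites. Without adjustment 1 and 4 of them had p under 0.05, against 3.8% and 15.4% of those sites. The nearest in NPCs was Prdm14 −7.3 kb, with Smc3 percentiles of 61.5 and 38.7 in WT and 93.0 and 86.0 in ΔZF1 NPCs (1.28 ± 0.40, limma adjusted p = 0.114). The ΔZF1 NPC Smc3 lists were the longest, and the median effect over all sites was 0.40 in that comparison, against 0.48 for the 26.

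Smc3 sites that switched between groups were counted next, and most were gains in the group with the longer lists. In ESCs 2 of 59 sites were ΔZF1 only (Klf4 +51.8 and Klf2 −46.5 kb) and 0 WT only, against 2.72% and 0.595% in the genome. In NPCs 4 of 76 were ΔZF1 only (the Tfcp2l1 promoter, Tbx3 +40.3 kb, Nanog +5.8 kb and Nanog +34.9 kb) and 0 WT only, against 8.6% and 0.246%. With WT CTCF 6 of 65 were NPC only (Esrrb +147.7, Pou5f1 +7.4, Klf4 +51.8, Nanog +57, Fgf4 +14.4 and Klf2 −46.5 kb) and 0 ESC only, against 6.23% and 0.253%. With ΔZF1 13 of 81 were NPC only and 2 ESC only (Fgf4 +18.7 and Klf2 +0.8 kb), against 20.4% and 0.255%. The 13 were 4 at Nanog (+5.8, +8.0, +34.9 and +36.0 kb), 2 each at Esrrb (+72.4 and +147.7 kb), Pou5f1 (+2.5 and +3.5 kb) and Fgf4 (+14.4 and +47.1 kb), and 1 each at Klf4 (+54.4 kb), Tbx3 (−9.9 kb) and the Tfcp2l1 promoter.

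The clearest of these was Esrrb +147.7 kb, an intronic site near the end of the gene. Its Smc3 percentiles were 69.9 and 54.7 in WT NPCs and 63.7 and 84.5 in ΔZF1 NPCs, with no peak in any of the 4 ESC libraries. In E14, PodxlpA and Grb10pA NPCs it was called in 2 of 6 libraries, at 34 and 36.8. Within the Pou5f1 gene Smc3 was called at +3.5 kb in 1 of 4 ESC libraries, at a percentile of 3.7, in 3 of 4 NPC rescue libraries, at 39.4, 60.7 and 53.5, and in 5 of 6 libraries of the E14, PodxlpA and Grb10pA NPCs, at 18.7 to 73.5. CTCF at this site showed the same order of calls, 2 of 8 in ESCs and 6 of 8 in NPCs. The number of Smc3 peaks around Nanog was 7 and 5 in WT ESCs, 7 and 8 in ΔZF1 ESCs, 11 and 7 in WT NPCs and 16 and 16 in ΔZF1 NPCs. These lists held 17880 and 8169, 18023 and 12181, 27798 and 13710, and 30516 and 34104 peaks in that order. The E14, PodxlpA and Grb10pA libraries had 2 to 5 peaks around Nanog, in lists of 10005 to 15626. The part of list length in these counts was not tested.

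Of the 3 proteins, Rad21 gave the largest difference in share between ESCs and NPCs at these loci. Its peaks in the windows were 0.424% and 0.384% of the list in WT ESCs and 0.766% and 0.639% in ΔZF1 ESCs, and 0.209% and 0.221% in WT NPCs and 0.195% and 0.181% in ΔZF1 NPCs. All 4 ESC values were above all 4 NPC values, and the log2 difference NPC minus ESC was −0.91 with WT and −1.90 with ΔZF1. With 2 libraries a group an exact permutation test cannot go below 0.333, so these are values without a test. The ΔZF1 ESC lists were the shortest, with 1306 and 2347 peaks, and held 10 and 15 peaks in the windows. At equal list lengths the differences were −0.61 and −1.48. For Smc3 the shares were 0.246% and 0.245% in WT ESCs, 0.255% and 0.238% in ΔZF1 ESCs, 0.198% and 0.219% in WT NPCs and 0.180% and 0.173% in ΔZF1 NPCs, in the same order but with a log2 difference of −0.24 with WT and −0.48 with ΔZF1.

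Nanog was the locus with the most Rad21 sites, 10 of the 43. WT ESC libraries had 6 and 10 Rad21 peaks there, ΔZF1 ESC libraries 3 and 7, WT NPC libraries 3 and 6 and ΔZF1 NPC libraries 4 and 3. The intronic site at +2.6 kb (chr6:122709516-122710519) had Rad21 in all 8 libraries and no peak in any of 22 CTCF or 14 Smc3 libraries. It ranked at 8.8 and 47.5 in WT ESCs and 31.2 and 42.0 in ΔZF1 ESCs, against 1.9 and 10.9 in WT NPCs and 14.1 and 7.2 in ΔZF1 NPCs. NPCs minus ESCs was −0.95 ± 0.56 with WT and −0.92 ± 0.47 with ΔZF1 (limma adjusted p = 0.394 and 0.137), so the difference did not pass. Next to it, Rad21 at +1.6 kb was called in all 4 ESC libraries, at 12.9 and 50.6 in WT and 17.2 and 49.4 in ΔZF1, and in 1 of 4 NPC libraries, at 9.7. At the −37.9 kb site Rad21 lay at 90.3 and 99.0 in WT ESCs, 85.0 and 83.3 in ΔZF1 ESCs, 72.5 and 86.7 in WT NPCs and 60.8 and 67.3 in ΔZF1 NPCs.

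At Esrrb a Rad21 site 163.8 kb from the start, just past the end of the gene (chr12:86524537-86525374), was called in all 4 ESC libraries and in 0 of 4 NPC libraries. Its percentiles were 43.3 and 56.2 with WT and 46.6 and 59.2 with ΔZF1. No CTCF or Smc3 library had a peak there, and no other gene body covered it. It was ESC only in both genotypes, together with Tbx3 +15.0, Tbx3 +42.4 and Nanog +20.8 kb with WT CTCF (4 of 43 sites, against 3.3% in the genome) and with Tbx3 +11.3, Nanog +1.6 and Fgf4 +19.9 kb with ΔZF1 (4 of 23 sites, against 0.841%). NPC only Rad21 sites were 0 of 43 with WT, against 3.27%, and 3 of 23 with ΔZF1 (Pou5f1 −21.7, Klf4 +17.6 and Tbx3 +20.6 kb), against 22.8%.

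Between genotypes 4 of 40 Rad21 sites were WT only in ESCs, namely Pou5f1 −21.7, Tbx3 +15.0, Tbx3 +20.6 and Tbx3 +42.4 kb, and 0 were ΔZF1 only, against 14.1% and 0.037% in the genome. At Pou5f1 −21.7 kb Rad21 ranked at 93.5 and 96.3 in WT ESCs, 92.1 and 86.2 in WT NPCs and 79.2 and 79.9 in ΔZF1 NPCs, and had no peak in either ΔZF1 ESC library. The Smc3 peak at this place was present in both ΔZF1 ESC libraries and ranked at a mean of 70.9, against 67.8 in WT ESCs. In NPCs 0 of 21 Rad21 sites were WT only or ΔZF1 only, against 5.29% and 2.46%. limma called 0 of 5 Rad21 sites for ΔZF1 minus WT in ESCs (background 0.0% of 792) and 0 of 8 in NPCs (0.0% of 2421), with 0 of each under an unadjusted p of 0.05, against 134 and 197 in the genome. For NPCs minus ESCs it called 0 of 7 with WT (background 1.33% higher and 1.38% lower, together 2.71% of 2105) and 0 of 3 with ΔZF1 (21.8% higher and 4.01% lower, together 25.8% of 724), with 1 and 2 under an unadjusted p of 0.05, against 17.4% and 36.2%. The nearest was Klf2 +47.0 kb with ΔZF1, at 93.0 and 85.4 in ESCs and 46.4 and 67.4 in NPCs (−1.08 ± 0.47, limma adjusted p = 0.0738).

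A larger part of the Rad21 peaks at these loci lay away from CTCF in ESCs than in NPCs. In WT ESCs 5 of 15 and 18 of 40 Rad21 peaks (33.3% and 45%) overlapped no CTCF peak of any of the 22 libraries, and in ΔZF1 ESCs 4 of 10 and 9 of 15 (40% and 60%). In WT NPCs these were 1 of 10 and 2 of 18 (10.0% and 11.1%), and in ΔZF1 NPCs 2 of 10 and 1 of 11 (20.0% and 9.09%). All 4 ESC values were above all 4 NPC values, with means of 44.6 ± 11.3% and 12.6 ± 5.03% (SD, n = 4 libraries each). No test was made, since these libraries mix the 2 genotypes and the counts are small. Over the whole lists the share without CTCF was 5.65% to 13.9% in ESCs and 6.58% to 8.45% in NPCs.

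**Figure D4:**
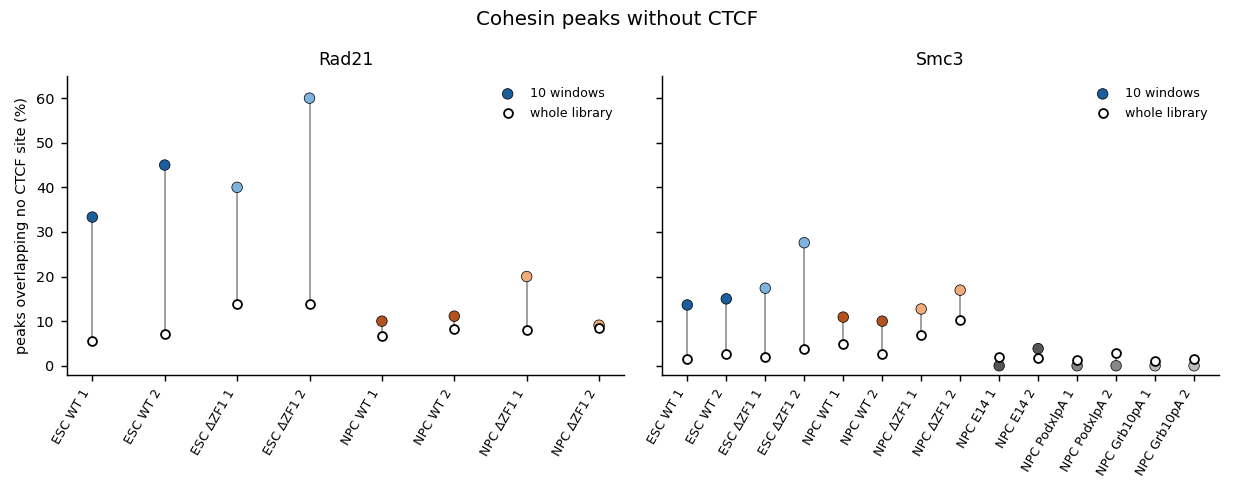
Percentage of Rad21 and Smc3 peaks that overlap no CTCF peak of any library. Filled points are the 10 windows, open points the whole list of the same library. For Rad21 the windows lie at 33.3% to 60% in ESCs and 9.09% to 20.0% in NPCs, while the whole lists lie at 5.65% to 13.9%.

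Of the 43 Rad21 sites 18 had no CTCF, and of these 15 were seen in ESCs only, 0 in NPCs only and 3 in both (83.3%, 0% and 16.7%), against 34.7%, 43.0% and 22.3% of the 1465 such sites of the genome. Of the 18 sites, 14 had no Smc3 peak in any of 14 libraries (77.8%, against 84.2% in the genome). The 18 were 7 in introns of Tfcp2l1, 4 at Nanog (+2.6, +7.7, +20.1 and +20.8 kb), 4 at Tbx3, 1 at Esrrb, 1 at Fgf4 and 1 just upstream of Zfp42. Of the 25 with CTCF, 7 were seen in ESCs only, 3 in NPCs only and 15 in both (28%, 12% and 60%, against 23%, 22.1% and 54.9%). Much of this rested on the longest list, WT ESC replicate 2 with 10415 peaks: 10 of the 15 ESC only sites were called in 1 library, and without that replicate 9 sites without CTCF were left, 6 in ESCs only, 0 in NPCs only and 3 in both, against 15.1%, 67.3% and 17.6% of 1126 such sites in the genome. Tfcp2l1 had 1 and 6 Rad21 peaks in WT ESCs, 0 and 1 in ΔZF1 ESCs and 0 in all 4 NPC libraries, and none of its 7 Rad21 sites had an Smc3 peak in any of 14 libraries.

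For Smc3 the share without CTCF ran in the same direction within each genotype, with a smaller gap. It was 13.6% and 15% in WT ESCs against 10.9% and 10% in WT NPCs, and 17.4% and 27.6% in ΔZF1 ESCs against 12.7% and 16.9% in ΔZF1 NPCs. The pooled ranges of ESCs and NPCs overlapped, and over the whole lists the shares were 1.58% to 3.74% in ESCs and 2.68% to 10.3% in NPCs. In the 6 E14, PodxlpA and Grb10pA libraries it was 0 in 5 libraries, which at 17 to 25 peaks allows a share of up to 12% to 17.6%, and 3.85% in the other, and these limits cover counting error only. Of 93 Smc3 sites 29 had no CTCF, 16 of them at Nanog, and 12 were seen in ESC rescue cells only, 14 in NPC rescue cells only and 2 in both (42.9%, 50% and 7.14%, against 11.8%, 82.8% and 5.36% in the genome). The recurrent ones were Nanog +20.2 kb, called in 7 libraries at percentiles of 50.7 and 32.8 in WT ESCs, 15.2 and 16 in ΔZF1 ESCs, 15.4 in 1 WT NPC library and 25.3 and 34.9 in ΔZF1 NPCs, and Fgf4 +18.7 kb, called in 5 libraries, at 4.9 and 8.5 in WT ESCs, 14 and 38.2 in ΔZF1 ESCs and 15.1 in 1 WT NPC library.

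Parental and polyadenylation lines were compared only by counts. E14, PodxlpA and Grb10pA libraries had peaks at 59, 50 and 53 of the 118 CTCF sites and in both libraries at 38, 28 and 38, against 71 in any and 18 in all 4 WT NPC rescue libraries. Of the 118 sites 49 were called in rescue libraries only, and 2 of these, Tbx3 −9.9 and +10.2 kb, were among the 39 recurrent ones. The other 47 were called in under 11 libraries. Rescue cells had 16 CTCF libraries against 6 of these lines, and the same counts over all CTCF sites were not made. The windows held 0.181% of the CTCF peaks of E14 NPCs, 0.185% of PodxlpA and 0.179% of Grb10pA (means of 2 libraries), against 0.188% in WT NPC rescue cells. Neither truncated gene lies in a window, and no difference between the 3 lines was tested at these sites.

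The same share was computed for 15 other pluripotency genes, among them Sox2, Klf5 and Sall4, and for 15 neural progenitor genes, among them Sox1, Pax6 and Nes. For the other pluripotency genes the geometric mean share of CTCF peaks was 0.202% in WT ESCs, 0.241% in ΔZF1 ESCs, 0.208% in WT NPCs and 0.228% in ΔZF1 NPCs. For the neural genes it was 0.133%, 0.145%, 0.182% and 0.147%. The within-library difference of the 10 loci minus the neural loci was −0.63 (log2) in WT NPCs minus ESCs (exact permutation p = 0.0857, adjusted 0.343), −0.07 with ΔZF1 (exact permutation p = 0.914), −0.13 for ΔZF1 minus WT in ESCs and 0.43 in NPCs (exact permutation p = 0.686 for both), so none passed the threshold. As the labels do not say that replicates were separate cultures, all p-values here measure the spread between these libraries only.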

How the data were processed

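CTCF, Smc3 and Rad21 ChIP-seq of 44 samples were analysed as peak lists, and 10 input samples were not analysed here. The authors aligned reads to mm10 with Bowtie2, kept mapping quality of at least 30 (SAMtools), removed duplicates (Picard) and blacklisted regions (bedtools), and ran MACS2 on each sample at q 0.01. Versions and the pairing with inputs are not given in the sources used here. For every peak the deposited lists hold a score, the fold enrichment (a ratio of pileup to local background) and −log10 p and q, all by the authors' caller. Depth is unknown, so no read test was made, and the study's DiffBind analysis was not repeated. The background of a library, the fewest fragments expected at any peak, was recovered from fold and p together for peaks with −log10 p up to 60, and at least 99.6% of those gave whole fragments within 0.002. No 2 lists shared more than 0.0628% of intervals.

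Sites were peaks merged over libraries at 1 bp of overlap, and a site takes the highest percentile where a library has several peaks in it. Shares were tested by exact permutation over libraries, and ranks with limma 3.58.1 (R 4.3.3) on normal scores, restricted to sites with a peak in each library of the comparison. P-values were adjusted over all those sites (Benjamini-Hochberg), with a threshold of 0.05. The scripts were tested on simulated data. Python 3.11.15, pandas 2.3.3, scipy 1.17.1 and pysam 0.24.0 were used. Sites named with values are those called in at least 11 CTCF libraries, those nearest to each gene start, those present in all of one group and none of the other, those past the threshold, and Smc3 sites without CTCF in at least 4 libraries. Other sites were named after their values were seen. The genes and lists were chosen with earlier results of these data known. Same-numbered CTCF replicates deviated together (correlations of 0.200 to 0.578 over 4 pairs, against −0.486 to 0.415 for unlike numbers). The 2 ranges overlap. With ΔZF1, ESC replicate 4 and NPC replicate 1 correlated at 0.415, against 0.309 for replicate 1 of both, so pairing by number was not settled. Alternatives covered the window (20 and 100 kb), sites built from summits within 200 bp, equal list lengths, a stricter −log10 q of 5, quantile normalization, the replicate block, replicate pairs, replicates 1 to 3 and leaving out each library.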

Additional observations from a re-analysis of the deposited data

Results flagged for a closer look

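A library stood apart from the other 3 of its group in 6 of 64 groups of 4 tested by Dixon's criterion, and chance alone flags about 1 in 20. ΔZF1 NPC replicate 2 had 0.312% of its CTCF peaks in the 10 windows, above the other 3. ΔZF1 ESC replicate 1 ranked the Klf2 +47.0 kb CTCF site at 91.4, above the other 3. WT ESC replicate 4 ranked Nanog −37.9 kb at 96.3, Nanog +12.7 kb at 26.0 and Pou5f1 −40.1 kb at 56.0, each below the other 3, and WT NPC replicate 4 ranked Nanog +32.6 kb at 2.55, also below the others. In the replicate 4 libraries 36.7% to 46.8% of peaks lay within 1 kb of a gene start, against 18.6% to 30.3% in replicates 2 and 3 and 20.8% to 54.9% in replicate 1, and the part of this in the low ranks was not tested.

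The share of Rad21 peaks at the 10 loci moved in opposite directions with ΔZF1 in the 2 cell types. ΔZF1 minus WT was 0.79 (log2) in ESCs and −0.19 in NPCs, a difference of 0.988, with both ΔZF1 libraries above both WT libraries in ESCs and below them in NPCs. This difference was not tested, since groups held 2 libraries. In ESCs the mean share also rose for the 15 other pluripotency genes (0.234% to 0.341%) and the 15 neural progenitor genes (0.180% to 0.324%). In NPCs it rose for both of these lists, from 0.279% to 0.344% and from 0.197% to 0.257%. The ΔZF1 ESC lists held 1306 and 2347 Rad21 peaks against 3539 and 10415 in WT ESCs, and at equal list lengths the difference was 1.11 in ESCs and −0.0760 in NPCs.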

How the results depend on the processing

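Log2 differences of the share of CTCF peaks at the 10 loci were small and turned sign with the processing. ΔZF1 minus WT in ESCs (−0.01) became 0.0631 at equal list lengths, 0.01003 with windows of 100 kb, 0.15 within replicates 2 and 3, and 0.0123 without WT ESC and ΔZF1 NPC replicate 4 together, an alternative chosen after seeing the data. In NPCs (0.13) it became −0.20 at equal list lengths and −0.14 within replicates 1 and 4. NPCs minus ESCs with WT CTCF (−0.19) became 0.0646 with windows of 20 kb and −0.25 with 100 kb. The 100 kb value had an exact permutation p of 0.0286, the smallest possible with 4 against 4 libraries. The loci minus the neural loci gave −0.53 with 20 kb, also at an exact permutation p of 0.0286. Neither was adjusted over the 4 comparisons as the main values were, so no pass is read from them. NPCs minus ESCs with ΔZF1 (−0.05) became 0.20 with 20 kb and 0.0408 with the stricter q. It was 0.00656 within replicates 2 and 3, and 0.0216 without both replicates 4. With replicates 1 to 3, chosen after seeing the data because the peak names of replicate 4 carry another number, ΔZF1 minus WT in ESCs was 0.0853. Leaving out each library gave −0.12 to 0.06455, −0.07515 to 0.22, −0.23 to −0.16 and −0.25 to 0.0563 in that order, and for the loci minus the neural loci −0.33 to 0.17, −0.14 to 0.71, −0.82 to −0.44 and −0.64 to 0.20.

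Smc3 shares kept their sign except ΔZF1 minus WT in ESCs, which became −0.16 at equal list lengths and −0.12 with 100 kb. In NPCs it was −0.0205 and −0.37 under the same settings, NPCs minus ESCs with WT −0.34 with 20 kb, and with ΔZF1 −0.23 at equal list lengths and −0.57 with 100 kb. Rad21 shares kept their sign: 1.11 for ΔZF1 minus WT in ESCs at equal list lengths, −0.0760 and −0.10 in NPCs at equal list lengths and with 20 kb, −0.61, −1.20 and −0.45 for NPCs minus ESCs with WT at equal list lengths, 20 kb and 100 kb, and −1.48, −2.11 and −1.33 with ΔZF1. Leaving out each library gave −0.04 to 0.06, −0.31 to −0.16, −0.31 to −0.17 and −0.53 to −0.43 for Smc3, and 0.66 to 0.92, −0.25 to −0.14, −0.98 to −0.84 and −2.03 to −1.77 for Rad21.

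Counts of CTCF sites present in all of one group and none of the other were 0 in the main setting and higher with fewer libraries: 1, 1, 3 and 2 within replicates 1 and 4, 5, 3, 7 and 3 within replicates 2 and 3, 2, 1, 4 and 3 with replicates 1 to 3, and 1, 4 and 1 without both replicates 4 (ESCs, then NPCs minus ESCs with WT and with ΔZF1). Counts over the genome rose as well. Within replicates 2 and 3 the windows had 5 of 69, 3 of 55, 7 of 66 and 3 of 58 sites. Over the genome 2411 of 32324 and 6260 of 30863 sites were then WT only, and 1292 of 36362 and 2425 of 24157 ESC only. The reverse held for 232, 31, 1309 and 56 sites. At equal list lengths 1 CTCF site was counted in ESCs and 1 for ΔZF1 NPCs minus ESCs, 1 Smc3 site in ESCs and 2 for ΔZF1 NPCs minus ESCs, and 1 and 3 Rad21 sites in NPCs and for ΔZF1 NPCs minus ESCs. The stricter q left 3 Smc3 sites for WT NPCs minus ESCs. Leaving out each library gave 0 to 1, 0 to 1, 0 to 4 and 0 to 1 for CTCF, 5 to 12, 13 to 20, 12 to 18 and 23 to 33 for Smc3, and 6 to 22, 1 to 7, 6 to 23 and 8 to 13 for Rad21. The 33 were 7 ESC only and 26 NPC only of 73 sites, against 635 and 13802 of 39818 over the genome. The 23 were ESC only, of 42 sites, against 3923 ESC only and 445 NPC only of 12729 over the genome. Counts without a genome value here are not read as changes at these loci.

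The limma calls among Smc3 sites of the windows for NPCs minus ESCs were 2 with WT after quantile normalization (1 higher, 1 lower) and 0 with the stricter q, and 3 with ΔZF1 under each of these. With the stricter q and ΔZF1, 1711 of 9640 Smc3 sites over the genome were called higher and 65 lower. Rad21 with ΔZF1 had 1 of 3 sites after quantile normalization, called lower, against 56 higher and 62 lower of 724 over the genome. Leaving out each library gave 0 to 0 for CTCF in every comparison, 0 to 0, 0 to 12, 0 to 1 and 0 to 11 for Smc3 and 0 to 0, 0 to 0, 0 to 0 and 0 to 1 for Rad21. The 12, without WT NPC replicate 1, were of 27 sites, against 5285 higher and 31 lower of 12480 over the genome. The 11, without ΔZF1 ESC replicate 2, were of 33 sites, against 5816 higher and 436 lower of 15465. Both counts are thus near the background. With the replicate block, 3 of 14 Smc3 sites and 1 of 7 Rad21 sites were called for WT NPCs minus ESCs. Over the genome these were 1250 higher and 222 lower of 6512 Smc3 sites, and 157 higher and 182 lower of 2105 Rad21 sites. For CTCF, where pairing by number was not settled, the block gave 0 calls in the windows. Over all sites it gave 11 lower for ΔZF1 minus WT in NPCs and 18 lower for ΔZF1 NPCs minus ESCs, both 0 without it. The share p with the block was 0.875, 0.875, 0.125 and 0.75 (the smallest with 4 pairs is 0.125). Same-numbered Smc3 and Rad21 libraries correlated at 0.150 to 0.186 and −0.118 to 0.136 over 2 pairs. Crossing the Rad21 numbers, chosen after seeing the data and run for ΔZF1 NPCs minus ESCs only, called 0 of 3 sites of the windows. Over all 724 sites it called 159 higher and 29 lower. The share of Rad21 peaks without CTCF in NPCs (12.6%) was 3.89% with CTCF sites widened by 500 bp, against 33.5% in ESCs, a setting chosen after seeing the data. The causes of these changes were not tested, and the peak lists give no depth, so a missing call is not an absent site.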
